A study of Mus musculus with 24 samples.

Results

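Gene levels and the spread between libraries were measured in the medial prefrontal cortex (mPFC) of saline offspring at weaning on postnatal day 21 (P21). The saline (SAL) baseline is made of 12 of the 24 RNA-seq libraries of the series, chosen by the treatment label alone, and no morphine library enters any value given here. The male libraries were PFC9, PFC12, PFC14, PFC16, PFC18 and PFC20, and the female libraries were PFC2, PFC4, PFC6, PFC7, PFC22 and PFC24, so each sex had 6. All were from B6D2F1/J hybrids labelled WT, the offspring of C57BL/6J mothers and DBA/2J fathers. Their mothers were given a daily subcutaneous injection of saline from before breeding until weaning, and the offspring themselves were not injected. Dams and litters were moved to a reversed light/dark cycle before weaning. In the study, small litters were combined after birth, which left 6 saline dams. Each litter gave 1 offspring of a sex, so the 6 male and 6 female libraries came from the same 6 litters. The sources used here do not name the littermates. The libraries were treated as independent, although a male and a female of the same litter are not. The mPFC was cut from brains kept in RNAlater after decapitation, and polyA RNA of the whole tissue piece was sequenced.

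The mPFC is a layered cortex without a granular input layer. Its excitatory projection neurons sit in upper layers that connect cortical areas and deep layers that project to thalamus, striatum and brainstem, and they are held in check by inhibitory interneurons. Around weaning, oligodendrocytes are still wrapping axons in myelin, microglia are pruning synapses, and neuronal activity drives short bursts of transcription of the immediate early genes.

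The values are the authors' normalized counts, with males and females in separate tables, so levels were not tested between the sexes. Library totals were 15150000 to 15770000 normalized counts, rounded, and the value of a single read in each library gave an estimated 13800000 to 20100000 reads behind it. Between 16715 and 17107 genes were above 0 in a library. Pairs of libraries within a table had Spearman correlations of 0.983 to 0.986 across genes, which are not independent replicates. The libraries matched their sex labels. The Y-linked helicase gene Ddx3y was at 850 to 1063 in the male libraries and at most 1.11 in the female ones. Xist, the RNA that coats the inactive X chromosome, was at 75.3 to 553 in the female libraries and at most 6.19 in the male ones. Columns of 5 libraries carry the word combined in their name, PFC9 of the males and PFC2, PFC4, PFC6 and PFC7 of the females, which the sources used here do not explain.

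The tissue label was checked against markers of the cortex. Levels of different genes are compared by a length-scaled level: the mean normalized count per kb of annotated exon, scaled within each table as TPM values are. Slc17a7, the vesicular glutamate transporter of cortical excitatory neurons (GRCm38 chr7:45163949-45176142), stood at 1835 on this scale in males and 1817 in females. Camk2a, the kinase of excitatory synapses, stood at 3805 and 4010. Tbr1, a transcription factor of projection neurons, stood at 132 on this scale in males and 126 in females. Markers of inhibitory neurons were also present, with Gad1, which makes GABA, at 304 and 294 on this scale, the peptide gene Sst at 792 and 771, and Pvalb, the calcium buffer of fast-spiking cells, at 85.1 and 98.5. Of the 14 hypothalamic peptide genes, 5 had a mean of at least 10, Trh, Pomc, Cartpt, Nts and Crh, and the list summed to 231 to 372 over the 12 libraries, while Oxt, Avp and Hcrt did not exceed a normalized count of 2.34. Ttr, the main transcript of the choroid plexus, did not exceed 16.6. Genes of the striatum, septum and olfactory bulb were above that in some libraries and are described further on.

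Among the 15 genes with the highest length-scaled level were synaptic and metabolic genes of neurons and astrocytes. Calm2, which encodes calmodulin, Camk2a, Snap25, the vesicle fusion protein, and Nrgn, the postsynaptic neurogranin, stood beside Slc1a2, the glutamate transporter of astrocytes, Cpe, which processes neuropeptides, the glycolytic gene Aldoa and the housekeeping genes Ppia, Eef1a1, Fth1, Cst3 and Hspa8. Slc1a2 reached 3838 on this scale in males and 3612 in females. Snurf, Mir6236 and Atp6v0c-ps2 also belonged to these genes. Their annotated lengths of 216, 123 and 465 bases are short, and Atp6v0c-ps2 is named as a pseudogene of Atp6v0c, so that reads of both may not be told apart. The sum of Atp6v0c and Atp6v0c-ps2 varied by 6.82% in males and 7.15% in females (coefficient of variation, SD divided by the mean, n = 6 each). Mir6236 lies in a ribosomal RNA repeat. It was at 36055 in PFC18 and 32957 in PFC20, and at 10593 to 12893 in the other 4 male libraries.

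Most genes were close to constant between animals. The median coefficient of variation of genes with a mean of at least 10 was 8.41% over the 6 male and 10.2% over the 6 female libraries. It depended on the level, with 22.8% for male genes at a mean of 10 to 50 and 5.09% for those above 5000. The 10 genes with the smallest spread (SD of log2 values, mean of both tables) were Trim35, Tm9sf2, Rab2a, Zdhhc3, Rad23b, Ehmt2, Pdha1, Rtn3, Glyr1 and Pitpna. Trim35, a ubiquitin ligase, ranged from 2604 to 2719 in males and from 2521 to 2605 in females. Pdha1, a subunit of pyruvate dehydrogenase, ranged from 5525 to 5630 in males and from 5176 to 5677 in females. Rtn3, a reticulon of the endoplasmic reticulum, was among the most abundant of them, at 28697 to 29796 in males and 27160 to 28727 in females.

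Receptor lists differed in spread. Of the GABA-A receptor subunits, 13 of 18 had a mean of at least 10 in both tables and 0 of these had a high spread in both tables. A gene was called of high spread where its SD of log2(value + 1) was above the 95th percentile of genes at the same level, which marked 5.02% of 13948 male genes, 5.02% of 13953 female genes and 2.01% of 13840 genes in both tables. For a list of 13, 0 called in both tables is near the share of all genes. Gabra6, a subunit of cerebellar granule cells, was listed at 0 in all 12 libraries. Of the NMDA and AMPA receptor subunits, 3 of 10 were called in each table and 2 of 10 in both. Grin1, the obligatory NMDA subunit, ranged from 7844 to 8712 in males and from 7249 to 8358 in females. Grin2b and Grin2a, the subunits that exchange during cortical maturation, were called of high spread in both tables. Grin2b was at 4261 in PFC2, 5350 in PFC4, 6455 in PFC6, 7016 in PFC7, 10050 in PFC22 and 10431 in PFC24, and at 7605 to 10457 in males. Grin2a was at 2367 to 2977 in the first 4 of these female libraries and at 4492 and 4634 in PFC22 and PFC24. For both subunits, PFC22 and PFC24 were above the 4 female libraries marked combined.

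**Figure D1:**
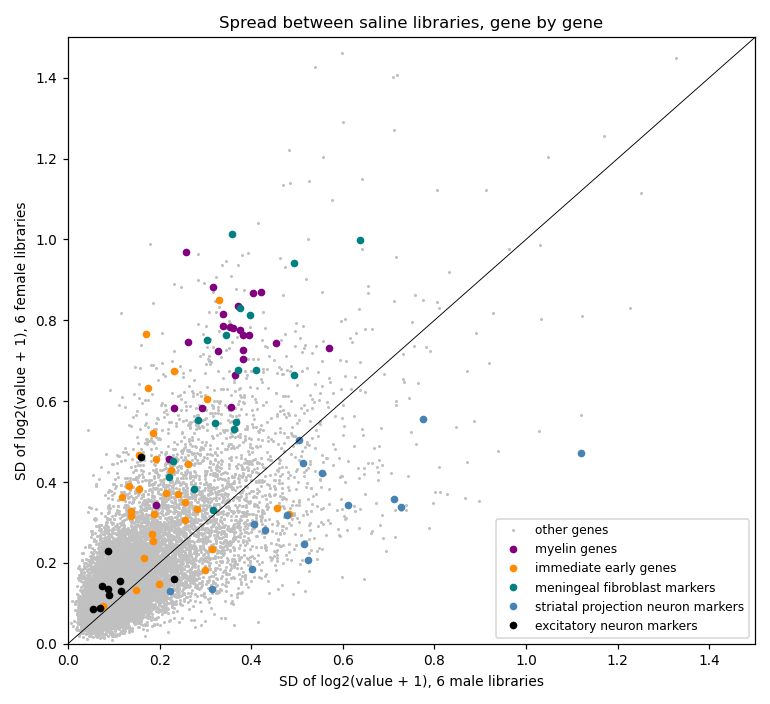
Spread of each gene (SD of log2(value + 1) over 6 saline libraries) in the male table on the x axis and in the female table on the y axis, for 13803 genes with a mean of at least 10 in both tables; 34 genes with a value of 0 and 3 genes beyond the axes are left out. Coloured points are members of named lists: the 24 myelin genes all lie at a female spread above most genes, striatal genes mostly lie below the diagonal, with a larger spread in males, and most excitatory neuron markers lie near the origin.

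High spread was shared between the tables more for some cell types than for others. In both tables together 278 genes were called, which were 40.1% of the 693 male and 40.5% of the 687 female calls among genes measured in both. Of the 278 genes, 93 belonged to at least 1 of the gene lists used here and 185 to none, and 32 were at 0 in at least 1 library. Of the myelin genes 19 of 24 were called in both tables, of the meningeal fibroblast markers 11 of 18, of the deep layer genes 8 of 15, of the microglia markers 8 of 22, of the immediate early genes 11 of 31, of the striatal markers 6 of 17 and of the erythroid genes 7 of 11, beside 2.01% of all genes. Called in both were 0 of 10 excitatory neuron markers, 0 of 24 sterol synthesis genes, 0 of 19 endothelium markers and 0 of 77 nuclear oxidative phosphorylation genes. For lists of these sizes, 0 is near the 2.01% of all genes. In single tables, 6 of 19 endothelium markers were called in males (31.6%, beside 5.02% of all genes) and 0 of 19 in females. These counts describe the lists, whose members share cells and libraries. In bulk tissue, fewer cells of a type and less RNA per cell cannot be told apart.

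**Figure D2:**
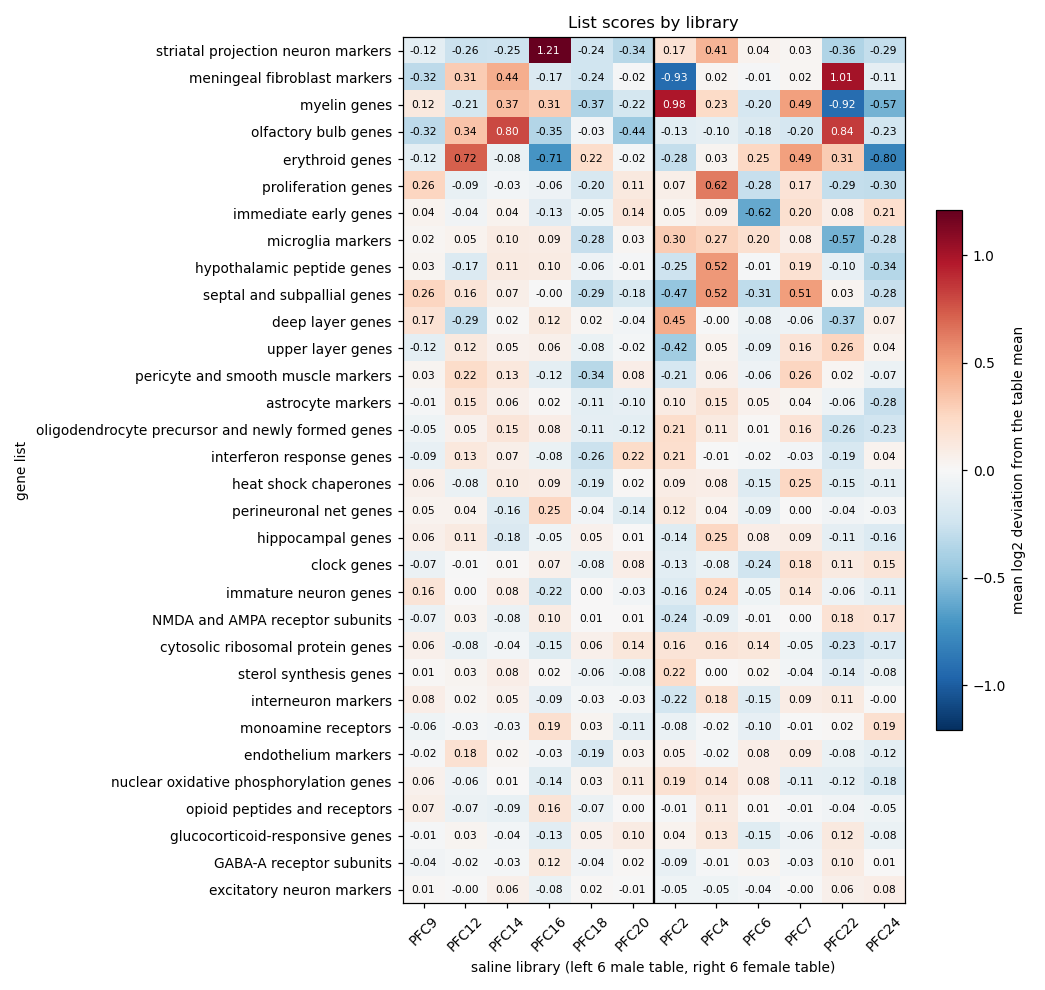
List scores of 32 gene lists (rows) in the 12 saline libraries (columns), coloured by the mean log2 deviation of a list's members from their table's mean. Myelin genes run from 0.98 in PFC2 to -0.92 in PFC22, meningeal markers run from -0.93 to 1.01 in the same libraries, striatal markers are high in PFC16 (1.21) and immediate early genes are low in PFC6 (-0.62).

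Myelin genes had the broadest spread of the neural lists in females. Each library was given a list score, the mean log2 deviation of the list's members from the mean of their own table. The female myelin scores were 0.98 in PFC2, 0.49 in PFC7, 0.23 in PFC4, -0.20 in PFC6, -0.57 in PFC24 and -0.92 in PFC22, a range that corresponds to 3.74-fold. The male scores lay between -0.37 in PFC18 and 0.37 in PFC14, corresponding to 1.67-fold. All 24 members were higher in PFC2 than in any other female library, at a median of 2.18 times the mean of the other 5, where 19.4% of all genes were highest in PFC2. In PFC22, 23 of 24 were below the other 5 libraries, at a median of 0.413 times their mean, where 17.1% of all genes were lowest in PFC22.

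Single myelin genes followed the scores closely. Mbp, myelin basic protein of the compacted sheath, was at 12125 in PFC22, 16507 in PFC24, 24142 in PFC6, 36372 in PFC7, 36918 in PFC4 and 51049 in PFC2 (29519 ± 14602, SD, n = 6), and at 17091 to 30243 in males (22189 ± 5324, SD, n = 6). PFC2 and PFC22 were thus the ends of the female range, and PFC24 was next to PFC22. The female libraries marked combined, PFC2, PFC4, PFC6 and PFC7, all lay above PFC24 and PFC22 for Mbp and for the myelin score. In females, the suffix and the myelin level cannot be told apart. Mog, a surface protein of the outermost lamella, ranged 5.13-fold in females and 1.83-fold in males. Mag, the adhesion protein next to the axon, ranged 4.65-fold and 2.18-fold, and Mobp, a cytoplasmic myelin protein, 4.78-fold and 1.75-fold.

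Scores of genes of earlier stages of the lineage ranged 1.39-fold in females and 1.20-fold in males, less than those of the myelin genes. PFC22 (-0.26) and PFC24 (-0.23), the female libraries not marked combined, had the lowest of these scores among the females. Pdgfra, the growth factor receptor of oligodendrocyte precursors, was at 680 to 918 in females and at 784 to 916 in males. The proteoglycan gene Cspg4 (NG2) of the same cells was at 146 to 209 and 153 to 239. In PFC2, where Mbp was highest, Pdgfra was at 809, and in PFC22 it was at 751. Of 15 genes of precursors and newly formed oligodendrocytes, 5 (33.3%) were of high spread in females and 2 (13.3%) in males, beside 5.02% of all genes in each table. Called in both tables, beside 2.01% of all genes, was 1 of them, Enpp6, which marks cells that have just begun to differentiate, at 164 to 370 in females and 177 to 318 in males. Olig1 and Sox10, transcription factors of the whole lineage, were of high spread in females alone, at 1324 to 2507 and 246 to 594.

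**Figure D3:**
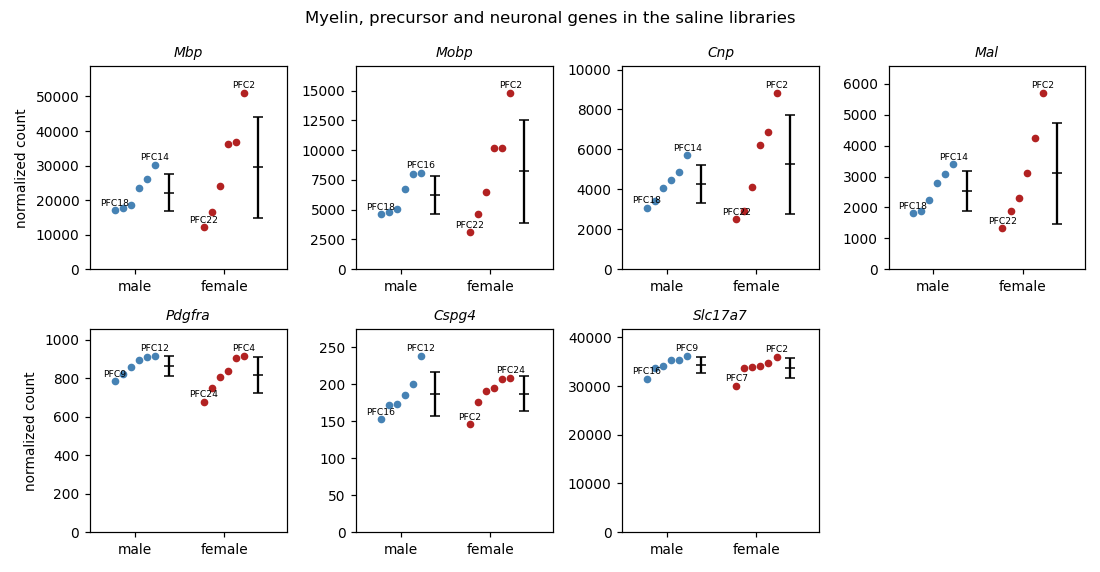
Normalized counts of 4 myelin genes (Mbp, Mobp, Cnp, Mal), 2 genes of oligodendrocyte precursors (Pdgfra, Cspg4) and Slc17a7 in each saline library, on linear axes that start at 0; points are libraries in order of their value and bars give the mean ± SD of the 6 libraries of a table. Mbp runs from 12125 to 51049 in females and from 17091 to 30243 in males, while Slc17a7 stays between 30034 and 36237 in all 12.

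Microglia markers varied less than myelin genes but in the same libraries. Their score was lowest in PFC18 of the males (-0.28) and in PFC22 of the females (-0.57), and highest in PFC14 (0.10) and PFC2 (0.30). Cx3cr1, the fractalkine receptor, was at 525 in PFC22 and 641 in PFC24 and at 879 to 985 in the other 4 female libraries. In males it was at 556 in PFC20 and 589 in PFC18 and at 771 to 868 in the other 4. Csf1r, the receptor microglia need to survive, was at 865 in PFC18 and 1157 to 1309 in the other male libraries, and at 881 in PFC22, 1052 in PFC24 and 1376 to 1644 in the other female libraries. Of the complement and activation genes, Trem2 ranged from 123 to 139 and Tyrobp from 141 to 166 in males, which was a narrow spread, and from 81.6 to 163 and 117 to 232 in females. Over the 12 libraries the myelin and microglia scores had r = 0.827 (rho = 0.829; permutation test within tables, adjusted p = 0.0231 for r and 0.0232 for rho over 12 relations). Within the tables r was 0.705 in males (exact permutation p = 0.0264) and 0.848 in females (exact permutation p = 0.0250). Without PFC2 and PFC22, the libraries farthest from the median of the myelin score, r was 0.675 (permutation p = 0.0701), so the call rested in part on these libraries. Leaving out any 1 of PFC18, PFC2, PFC4, PFC7, PFC22 and PFC24 gave r of 0.72 to 0.84 with an adjusted p of 0.0508 to 0.103. The 4 female libraries marked combined had the 4 highest microglia scores of their table, and centred on that mark within each table r was 0.522 (permutation test, adjusted p = 0.293).

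Astrocyte markers did not separate the libraries to that extent. Their scores lay between -0.11 and 0.15 in males and between -0.28 in PFC24 and 0.15 in PFC4 in females. Of 18 members, 5 (27.8%) were of high spread in females and 3 (16.7%) in males, beside 5.02% of all genes in each table. Called in both tables, beside 2.01% of all genes, was 1 of the 18, Gfap. Gfap, the intermediate filament of fibrous and reactive astrocytes, was at 699 in PFC24, 886 in PFC6 and 1297 to 1594 in the other 4 female libraries, and at 887 to 1460 in males. Aqp4, the water channel of astrocyte endfeet, ranged from 1632 to 1954 in females and from 1609 to 2263 in males. The myelin and astrocyte scores had r = 0.592, which did not pass the test (permutation test, adjusted p = 0.173).

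Markers of striatal projection neurons set 1 male library apart. All 22 striatal genes in the tables were higher in PFC16 than in each of the other 5 male libraries, at a median of 2.40 times their mean, where 25.0% of all genes were highest in PFC16. The score of PFC16 was 1.21, and the other 5 males lay between -0.34 and -0.12. Of the 17 members in the score, Six3 reached the minimum mean of 10 in males only through PFC16, and without Six3 the score was 1.05 in PFC16 and -0.29 to -0.14 in the other males. Adora2a, the adenosine receptor of indirect pathway neurons (GRCm38 chr10:75316877-75334784), was at 265 in PFC16 and at 36.7 to 41.3 in the other 5 males (38.9 ± 1.73, SD, n = 5), a 6.82-fold difference. In females Adora2a was at 30.3 to 78.2 with a median of 56.4, and PFC4 was the highest. Penk, the enkephalin precursor, was at 1512 in PFC16 and 598 to 705 in the other males, and Ppp1r1b, which encodes the dopamine signalling protein DARPP-32, was at 2019 and 719 to 1175. Drd1, a dopamine receptor that deep cortical neurons also express, was at 570 against 263 to 392, and Drd2 at 133 against 29.2 to 52.1. Six3, a transcription factor of striatal neurons, was at 61.4 in PFC16 and at 1.09 to 3.97 in the other males.

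Other genes of the basal forebrain followed in part. Chat and Slc5a7, which make and recycle acetylcholine, were at 23.2 and 92.1 in PFC16 and at 1.99 to 6.87 and 22.5 to 32.2 in the other males. The Zic1 and Zic4 genes, transcription factors of the septum and meninges, were lowest in PFC16. Cortical excitatory markers scored -0.08 in PFC16, the lowest male value, and ranged over 1.10-fold in both tables. GABA-A receptor subunits scored 0.12 in PFC16 and between -0.04 and 0.02 in the other males. Without PFC16, the means of Adora2a, Drd2 and Six3 in males were 38.9, 42.6 and 1.93, compared with 76.6, 57.6 and 11.8 over all 6. PFC16 also had the highest values of long genes: the median log2 deviation of the longest genes (from 4795 bases) was 0.23 above that of the shortest (up to 1707 bases). The part of that pattern in the striatal genes was not tested.

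**Figure D4:**
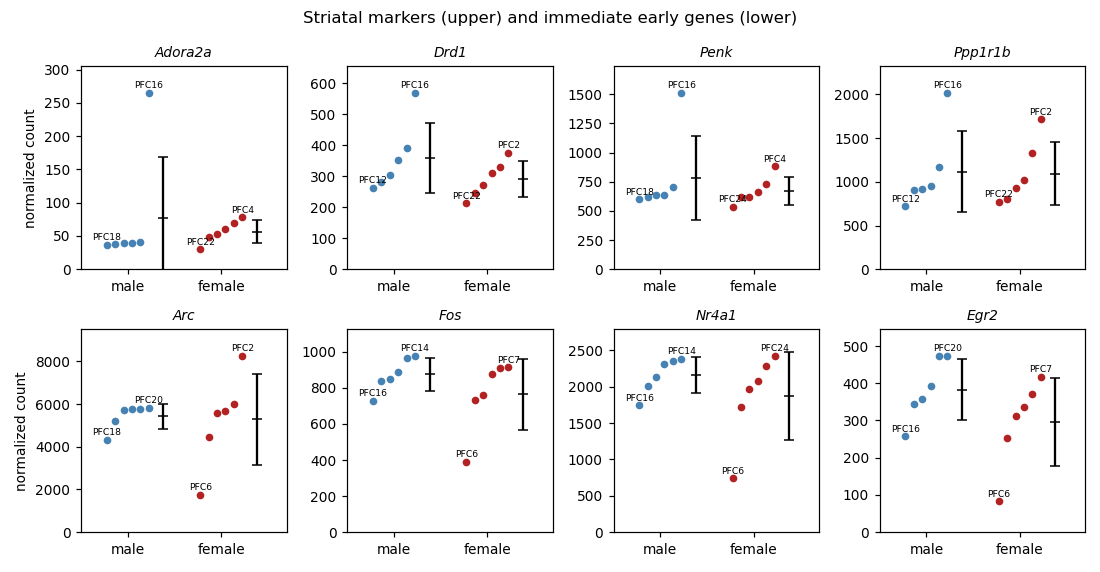
Normalized counts of striatal genes (Adora2a, Drd1, Penk, Ppp1r1b) and immediate early genes (Arc, Fos, Nr4a1, Egr2) in each saline library; points are libraries and bars give the mean ± SD of 6, the lower bar of Adora2a in males being cut off at 0. PFC16 is the high male point of all 4 striatal genes (265 for Adora2a) and PFC6 the low female point of all 4 immediate early genes (1757 for Arc).

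Immediate early genes set 1 female library apart. These genes are switched on within minutes of synaptic activity or stress through factors such as CREB, which binds the cAMP response element (CRE), and serum response factor, which binds the CArG box. In PFC6, 24 of 32 members were below all other 5 female libraries, at a median of 0.593 times their mean, where 14.5% of all genes were lowest in PFC6. Its score was -0.62, and the other 5 females lay between 0.05 and 0.21. In males the scores lay between -0.13 in PFC16 and 0.14 in PFC20.

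The promoters of 4 immediate early genes that were low in PFC6 are shown because they hold sequence matches to the CRE half-site, the CRE or the CArG box. Each is the 250 bases before the gene's start in the reference genome (RefSeq, GRCm38.p6), 5′ to 3′ on the gene's strand. Capitals mark the CRE half-site TGACG on either strand (CGTCA when read on the opposite one), the full CRE TGACGTCA, which contains half-sites on both strands, and the CArG box. The libraries also carried a DBA/2J copy of each gene, which is not shown.
Fos, + strand, chr12:85473640-85473889: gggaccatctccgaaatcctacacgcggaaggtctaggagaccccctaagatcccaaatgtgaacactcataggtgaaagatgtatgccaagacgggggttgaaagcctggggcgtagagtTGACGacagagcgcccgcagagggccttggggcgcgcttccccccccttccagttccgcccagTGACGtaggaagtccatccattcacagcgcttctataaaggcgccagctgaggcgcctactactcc
Nr4a1, + strand, chr15:101266596-101266845: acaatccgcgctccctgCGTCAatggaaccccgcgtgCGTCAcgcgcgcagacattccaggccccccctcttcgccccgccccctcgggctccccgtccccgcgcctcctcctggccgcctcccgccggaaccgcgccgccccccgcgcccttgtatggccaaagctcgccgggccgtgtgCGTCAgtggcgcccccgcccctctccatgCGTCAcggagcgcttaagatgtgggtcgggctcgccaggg
Dusp1, - strand, chr17:26508473-26508722: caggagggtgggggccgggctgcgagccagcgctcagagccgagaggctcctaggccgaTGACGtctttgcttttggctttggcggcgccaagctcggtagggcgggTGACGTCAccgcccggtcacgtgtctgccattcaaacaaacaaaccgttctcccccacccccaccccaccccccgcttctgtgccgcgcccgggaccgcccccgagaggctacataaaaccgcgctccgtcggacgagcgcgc
Dusp5, + strand, chr19:53528895-53529144: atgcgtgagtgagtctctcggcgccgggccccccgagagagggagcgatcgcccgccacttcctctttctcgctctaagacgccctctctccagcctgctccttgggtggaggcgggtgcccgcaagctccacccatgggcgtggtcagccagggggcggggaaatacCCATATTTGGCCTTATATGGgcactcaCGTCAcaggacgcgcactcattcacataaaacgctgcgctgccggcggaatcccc

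Counted back from the start, the half-sites of Fos began at -129 and -66, the CRE of Dusp1 spanned -143 to -136, and the CArG boxes of Dusp5 began at -82 and -72. Of 23 immediate early genes with such a window outside chromosome 18, 16 (69.6%) held a half-site, compared with 19.8% of the 27025 genes with a window. Immediate early genes on chromosome 18 were left out, while the 27025 include genes of that chromosome. The full CRE was found in 3 of the 23, Btg2, Dusp1 and Maff, compared with 1.77% of genes, and the CArG box in Dusp5 and Egr2, compared with 1.62%. These matches describe the sequence and are not evidence of binding.

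The 4 genes with printed promoters, chosen among those low in PFC6, were all lowest in PFC6 among the females. Fos, which encodes a subunit of the AP-1 factor, was at 391 in PFC6, 733 in PFC2, 759 in PFC4, 878 in PFC22, 910 in PFC24 and 915 in PFC7, and at 729 to 979 in males. Nr4a1, an orphan nuclear receptor, was at 742 in PFC6 and 1717 to 2426 in the other 5, and at 1742 to 2380 in males. The phosphatase genes Dusp1 and Dusp5, which switch off MAP kinases, were at 408 and 20.3 in PFC6 and at 747 to 831 and 53.7 to 75.5 in the other 5. As the 4 were chosen for low values in PFC6, its place apart from the other females for them is not a separate result. Arc, which encodes a synaptic protein of activity-driven plasticity (GRCm38 chr15:74669083-74672570), was at 1757 in PFC6 and 4451 to 8261 in the other females, and at 4313 to 5810 in males. Egr2, a zinc finger factor, was at 82.7 in PFC6 and 253 to 417 in the other females, and Npas4, the most selectively activity-driven factor, at 130 and 290 to 440. The zinc finger factor Egr3 was at 0.946 times the mean of the other females in PFC6 and the secreted pentraxin Nptx2 at 1.07 times, so the low values did not cover every member.

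PFC6 was also low for genes of the circadian clock. Of 19 clock genes 9 were lowest in PFC6 among the females, where 14.5% of all genes were. Per1, a clock repressor that activity also induces, was at 787 in PFC6 and 1235 to 1780 in the other 5. Ciart, a repressor of the clock, was at 98.1 and 156 to 257, and Bhlhe40, a further repressor, at 1250 and 1411 to 2478. Arntl and Clock, the activators, were at 1.08 and 0.99 times the mean of the other 5. Over the 12 libraries, immediate early and clock scores had r = 0.720 (rho = 0.629; permutation test within tables, adjusted p = 0.0349 for r and 0.0982 for rho over 12 relations). In males alone r was 0.151 (exact permutation p = 0.726) and in females 0.790 (exact permutation p = 0.00833). Without PFC6, r was 0.459 (adjusted p = 0.276), so the call rested on this library, and without PFC6 and PFC16, the libraries farthest from the median of the immediate early score, it was 0.726 (permutation p = 0.0289). Leaving out any 1 of PFC12, PFC18, PFC20, PFC2, PFC4, PFC7, PFC22 and PFC24 gave r of 0.684 to 0.793 with an adjusted p of 0.0508 to 0.119. With scores as medians, r was 0.619 (permutation test, adjusted p = 0.126), and centred on the suffix combined it was 0.714 (adjusted p = 0.368), so the call was lost under both. The hour at which each animal was killed is not given in the sources used here.

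No relation of the immediate early genes with stress-related lists passed the test. Of the glucocorticoid-responsive genes, Fkbp5, a feedback regulator of the receptor, was at 300 to 494 in females and 335 to 474 in males, and Tsc22d3 at 937 to 1238 and 980 to 1195. In PFC7, the heat-inducible chaperone genes Hspa1a and Hspa1b were at 250 and 283, compared with 86.4 to 136 and 60.5 to 126 in the other females. Hspa1a and Hspa1b are near-identical copies, so their split is uncertain, and their sum was 533 in PFC7 and 147 to 262 in the other 5. Of 19 chaperones 8 were highest in PFC7, where 11.9% of all genes were. Constitutive members were level, with Hspa8 at 36442 to 47339 in females. Immediate early scores had r = 0.408 with heat shock scores and r = 0.496 with glucocorticoid scores (permutation test, adjusted p = 0.296 and 0.219).

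**Figure D5:**
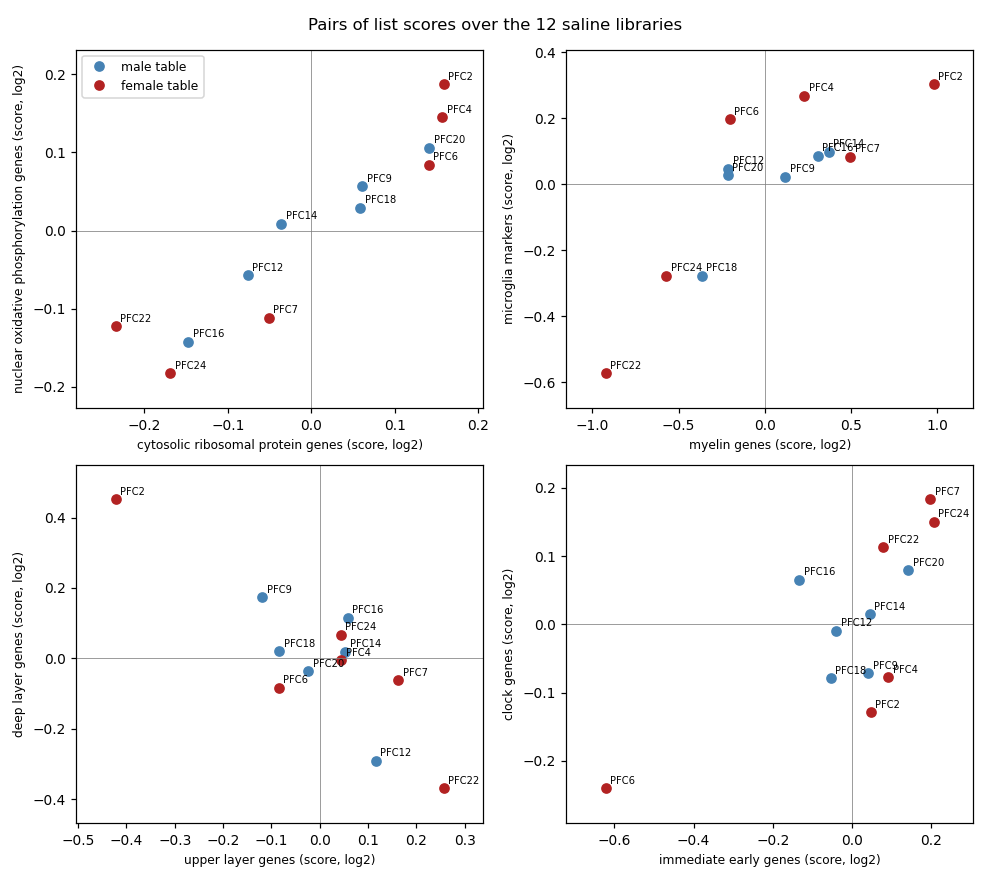
List scores of the 12 saline libraries for 4 pairs of lists, in log2 units centred on the mean of each table; each point is a library, with male and female libraries in different colours. Ribosomal protein and oxidative phosphorylation scores lie along a line in both tables (r = 0.941), myelin and microglia scores rise together (r = 0.827), upper and deep layer scores are opposed mainly through PFC2 and PFC22 (r = -0.841), and PFC6 lies alone at the low end of the immediate early scores (r = 0.720).

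Most cortical layer genes were opposed in the libraries at the ends of the myelin range. In PFC2, 11 of 15 deep layer genes were above the other 5 females and 10 of 13 upper layer genes below them, where 19.4% of all genes were highest and 18.5% lowest in PFC2. In PFC22, 10 of 15 deep layer genes were below the other 5, where 17.1% of all genes were lowest in PFC22. The deep layer genes Etv1 and Deptor went the other way in PFC2. They were below each of the other 5, at 0.776 and 0.777 times their mean. In PFC22, Deptor was above the other 5, at 1.21 times their mean. The largest differences were in genes of the subplate and the layer above white matter. Nxph4, a secreted ligand of neurexins, was at 166 in PFC2, 80.6 in PFC4, 49.1 in PFC24, 47.5 in PFC7, 32.0 in PFC6 and 24.2 in PFC22, and at 28.0 to 96.5 in males. Cplx3, a complexin of subplate neurons, ranged from 143 in PFC22 to 647 in PFC2, and the matrix protein gene Ctgf from 362 to 1270 in the same libraries. In males, PFC12 was the lowest and PFC9 the highest for Nxph4, Cplx3 and Ctgf.

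Among upper layer genes, Calb1, a calcium buffer, was at 1468 in PFC2 and 2124 to 3094 in the other females, and at 2412 to 2812 in males. Rasgrf2, an exchange factor for Ras, was at 864 in PFC2, 1095 in PFC6 and 1338 to 1836 in the other 4 females, and at 1470 to 1685 in males. Broad deep layer factors were not called of high spread. Bcl11b was at 1206 in PFC22 and 1301 to 1435 in the other females. Fezf2 was at 848 in PFC22 and 1188 in PFC2, the ends of its female range, and at 954 to 1087 in the other 4. The upper and deep layer scores had r = -0.841 (rho = -0.629; permutation test within tables, adjusted p = 0.0231 for r and 0.0982 for rho over 12 relations), with -0.650 in males (exact permutation p = 0.140) and -0.902 in females (exact permutation p = 0.0208). Without PFC2 and PFC22, r was -0.437 (permutation p = 0.228), so the relation rested on these libraries. Leaving out any 1 of PFC12, PFC2, PFC7 and PFC22 gave r of -0.858 to -0.644 with an adjusted p of 0.0547 to 0.109. Centred on the suffix combined, r was -0.798 and the call was lost (permutation test, adjusted p = 0.186).

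Genes of the meninges, the blood and neighbouring brain regions varied between libraries of both sexes. Meningeal fibroblast scores were 1.01 in PFC22 and -0.93 in PFC2, the libraries at the opposite ends of the myelin scores, and between -0.11 and 0.02 in the other 4 females. They were 0.44 in PFC14 and -0.32 in PFC9 of the males. In PFC22 all 18 markers were above the other 5 females, at a median of 2.07 times their mean. In PFC2, 17 of 18 were below the other 5, at a median of 0.477 times their mean. Of all genes, 15.8% were highest in PFC22 and 18.5% were lowest in PFC2. Col1a1, a fibrillar collagen (GRCm38 chr11:94936224-94953042), was at 538 in PFC22, 415 in PFC6, 227 in PFC7, 214 in PFC4, 144 in PFC24 and 79.5 in PFC2, and at 179 to 690 in males. Ptgds, the prostaglandin D synthase of the leptomeninges and of oligodendrocytes, ranged from 2021 in PFC2 to 10534 in PFC22, although the myelin genes were highest in PFC2. In the same PFC22, the olfactory bulb genes Doc2g and Cdhr1, markers of mitral and tufted cells, were at 140 and 204, compared with 18.0 to 25.5 and 53.4 to 91.1 in the other females. In PFC14 they were at 177 and 239, and in PFC12 at 93.6 and 173, compared with 18.9 to 34.2 and 64.9 to 112 in the other 4 males. Eomes, a transcription factor of the same cells, was at 38.2 in PFC22, 39.0 in PFC14 and 33.0 in PFC12, and at most 10.0 in the other libraries.

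The septal factor Zic1 was at 344 in PFC4 and 325 in PFC7 and at 79.6 to 129 in the other 4 females, and at 125 to 214 in males. Igfbpl1, a gene of newborn neurons that migrate from the ventricle's wall, was at 70.4 in PFC4 and 45.1 in PFC7, 36.7 in PFC9, and at most 13.8 in the other 9 libraries. The proliferation gene Top2a, a topoisomerase of dividing cells, was at 83.7 in PFC4, 60.3 in PFC7 and 41.3 in PFC2, and at 17.8 to 23.8 in the other females. Nts, a neuropeptide of the lateral septum, was at 85.5 in PFC4, 54.8 in PFC7 and 12.2 to 22.4 in the other females. Zic1, Igfbpl1, Top2a and Nts were therefore highest in PFC4 among the females, followed by PFC7. Which parts of the brain entered each cut piece was not tested.

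Red cell transcripts were present in every library. Hba-a1, an alpha globin gene (GRCm38 chr11:32283511-32284465), was at 1310 in PFC16 and 6423 in PFC12 at the ends of the male range and at 1466 in PFC24 and 6536 in PFC22 at the ends of the female range, with medians of 3213 and 3256. The globin genes are near-identical copies in pairs, so reads may be split between Hba-a1 and Hba-a2. Alas2, the haem enzyme of red cell precursors, has no such copy and was at 59.1 to 198 in males and 34.9 to 161 in females, with PFC16 and PFC12, and PFC24 and PFC22, again at the ends. Neutrophil transcripts were low, with a sum of 53.3 to 96.0 over the 17 listed genes. S100a8 was at most 13.3 and S100a9 at most 10.1, and the most abundant member, Csf3r, a cytokine receptor, was at 15.3 to 37.8. Hbb-bs was at 67.2 in PFC7 and at 0 in the other 5 females, so that it entered the erythroid score through this library. Erythroid scores had r = 0.461 with endothelium scores (permutation test, adjusted p = 0.219), and Cldn5, a tight junction gene of the endothelium, ranged only from 578 to 883 over the 12 libraries.

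Ribosomal protein and oxidative phosphorylation genes moved together by small amounts. The 76 cytosolic ribosomal protein genes scored between -0.15 in PFC16 and 0.14 in PFC20 in males and between -0.23 in PFC22 and 0.16 in PFC2 in females, and the 77 nuclear genes of the respiratory chain between -0.14 and 0.11 and between -0.18 and 0.19. The scores had r = 0.941 (rho = 0.971; permutation test within tables, adjusted p = 0.00372 for r and 0.000600 for rho over 12 relations), with 0.968 in males (exact permutation p = 0.00139, the smallest that 6 libraries allow) and 0.933 in females (exact permutation p = 0.0347). Without PFC22 and PFC24 r was 0.945. Both lists are of short transcripts, and libraries differed by length: the longest genes lay above the shortest by 0.23 in PFC16, as given above, and, in females (from 4792 and up to 1703 bases), by 0.20 in PFC24 and 0.12 in PFC22, and below them by 0.16 in PFC4 and 0.14 in PFC2 on the log2 scale. With each gene's deviation centred on genes of like length, r was 0.713 and did not pass the test (permutation test, adjusted p = 0.177).

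Long noncoding RNAs kept in the nucleus were among the genes with the largest spread. Malat1, a nuclear speckle RNA, was at 705 in PFC2, 900 in PFC6, 919 in PFC4, 2266 in PFC7, 3522 in PFC22 and 4627 in PFC24 of the females, and in males it ran from 1402 in PFC14 to 4523 in PFC20. Meg3, an imprinted RNA, ranged 7.55-fold in females, from 391 in PFC2 to 2955 in PFC24, and 3.01-fold in males. Kcnq1ot1, a chromatin-bound imprinted antisense RNA, ranged from 43.5 in PFC2 to 296 in PFC24. Xist was at 75.3 in PFC4 and 84.7 in PFC2, its lowest female values, and at 464 in PFC22 and 553 in PFC24, its highest. For Malat1, Meg3, Kcnq1ot1 and Xist the 4 female libraries marked combined lay below PFC22 and PFC24. In females, the suffix and these levels cannot be told apart.

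The largest spread of all was in genes that read as on or off. Amd1, an enzyme of polyamine synthesis, was listed at 0 in PFC9, PFC16, PFC18, PFC2 and PFC24 and reached 668 in PFC14 and 1204 in PFC7. Amd2 is a close copy of Amd1, and the sum of both varied by 6.16% in males and 5.83% in females. Cers1, a ceramide synthase, was at 0 in PFC9 and PFC7 and at 294 to 1282 in the others. Gdf1, which shares a transcript with Cers1 and is named here after its values were seen, was highest in PFC9 (1181) and PFC7 (1097). The sum of Cers1 and Gdf1 varied by 16.1% and 18.0%. The Fam205a2, Fam205a3 and Fam205a4 copies varied by 6.61% and 8.39% as a sum. Such genes share sequence, so the single values are uncertain. Of the 20 genes with the largest spread, 2210418O10Rik, Gm5424, Gm14296, Gm3055 and Gm20604 are predicted genes, and the rest were Mir124a-1hg, Hba-a1, Col1a1, Nxph4, Adora2a, Cdhr1, Hspa1b and Slc13a4 beside those described.

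The opioid system was expressed at very different levels. By the length-scaled level Oprl1, the nociceptin receptor, was at 47.4 in males and 47.0 in females, Oprd1, the delta receptor, at 7.0 and 6.38, Oprk1, the kappa receptor, at 3.55 and 2.97, and Oprm1, the mu receptor through which morphine acts, at 1.21 and 0.837. The normalized counts of Oprm1 were between 5.81 and 19.5 in males, highest in PFC16, and between 3.35 and 10.3 in females, which are values that rest on few reads. Oprd1 was also highest in PFC16 among males, at 262 against 152 to 178. Of the peptide precursors, Penk was at 84.1 and 73.0 on this scale, Pdyn (dynorphins) at 40.1 and 39.2, Pnoc (nociceptin) at 11.3 and 11.3, and Pomc (endorphin) at 4.10 and 4.47. Oprl1 was the steadiest of the 8, ranging 1.09-fold in males and 1.26-fold in females.

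Genes that the study also measured by qPCR differed widely in spread. Of 28 targets, 25 had a mean of at least 10 in both tables and 4 of them were of high spread in both, beside 2.01% of all genes, among them Itgam, Mbp and Mog. Itgam, which encodes CD11b of microglia, was at 182 in PFC18 and 267 to 306 in the other males, and at 169 in PFC22, 248 in PFC24 and 287 to 371 in the other females. Penk was of high spread in males, through PFC16, and Pdyn and C1qa, a complement subunit of microglia, in females. The synaptic genes Dlg4, Syp and Gphn, the epigenetic enzymes Dnmt1, Dnmt3a, Hdac2 and Setd7 and the immune adaptor Myd88 were not, and ranged at most 1.31-fold in males and 1.30-fold in females. Toll-like receptor transcripts were low, with Tlr4 at 18.2 to 33.1, Tlr2 at 6.68 to 23.5 and Ly96, the coreceptor of Tlr4, at 2.15 to 13.3 over the 12 libraries. Slc6a3, the dopamine transporter made in midbrain cells, did not exceed 5.14. The reference genes Actb, Gapdh, Ppia and Ywhaz ranged 1.27-, 1.16-, 1.17- and 1.06-fold in males and 1.45-, 1.25-, 1.21- and 1.22-fold in females.

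The 8 remaining relations of the 12 did not pass an adjusted p of 0.05. Myelin with striatal scores had r = 0.489 (permutation test, adjusted p = 0.0670; without PFC14 0.578, adjusted p = 0.0275), deep layer with striatal scores 0.370 (adjusted p = 0.219), meningeal with choroid plexus scores 0.380 (adjusted p = 0.296) and erythroid with neutrophil scores 0.361 (adjusted p = 0.296). The neutrophil score rested on 2 members and the choroid plexus score on 5, of which Clic6 and Kcnj13 reached the minimum mean in a table through 1 library.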

How the data were processed

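The authors' reads of polyA RNA (single-end) were aligned with STAR to mm10, gene abundance was estimated with Salmon, and counts were normalized with DESeq, per the submitters' notes and the study's methods. The 2 deposited tables, 1 for each sex, hold a signal for 24972 genes, the authors' normalized counts. They are not raw counts: of the lowest values, 89.3 to 96.2% lay within 5% of the value of a single read, so whole reads were not recovered, and no count test was used. Each table was normalized on its own, which is why deviations were taken from the mean of the 6 saline libraries of a table and levels were not tested between tables. Normalization to a common scale hides differences in total RNA, and polyA selection leaves most ribosomal RNA out.

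Spread was the SD of log2(value + 1) over 6 libraries, and a gene of high spread lay above the 95th percentile of 20 bins of mean level, for genes whose mean reached 10. List scores used members with a mean of at least 10 in both tables. The 12 relations between scores were tested with Pearson's r by 100000 2-sided permutations within tables with Benjamini-Hochberg adjustment over the 12, and within tables by exact permutation over all 720 orders. The p-values give how often pairings shuffled within tables had a correlation at least as strong. They rest on 6 libraries per table, treated as independent, although males and females came from the same litters. The adjustment over the 12 does not cover the choice of relations, which was made with earlier results known. Exon lengths and positions came from GENCODE M21, which gave a length for 24548 genes, and promoters from the RefSeq table of GRCm38.p6. Python 3.11.15 with numpy 2.4.6, pandas 2.3.3, scipy 1.17.1 and matplotlib 3.10.9 was used, and the code was tested on simulated data.

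Libraries were taken by treatment label, and that choice, the gene lists and the relations were made with earlier results of these data known. Genes named were, of each list described, the 4 with the highest level per kb, the 4 with the largest and 2 with the smallest spread, and members of high spread in both tables; opioid, receptor and qPCR genes; the 15 highest genes per kb; the 20 with the largest and 10 with the smallest spread at a mean of at least 50; and the genes that a relation or an outlying score turned on. Gdf1 and the markers used to describe cell types and regions outside these rules, such as Tbr1, Pvalb, Pdgfra, Cspg4, Sox10, Slc5a7 and Top2a, were named after their values were seen. Alternatives were other pseudocounts, minimum means, percentiles and bins, rescaled totals, median scores, centring on the suffix combined, and leaving out each library. Morphine libraries were not used here. Some genes are not reported here.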

Additional observations from a re-analysis of the deposited data

Results flagged for a closer look

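In each table, the lowest and the highest of the 6 saline libraries were compared with the next one, and the gap was divided by the whole range of the group. A share of the range above the critical value of Dixon's ratio for 6 samples marks a library that stands apart from the other 5, which chance alone does for about 1 in 20 groups. Of 76 series of list scores 5 were marked, which is near that rate. A mark on a list score therefore does not by itself set a library apart from chance. A further 29 marks were in single genes, which were named in part for their large spread or for an outlying score, so their number is not to be read against that rate.

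In PFC16 the striatal score was the highest of the males, with a gap of 0.86 of the range, and so was the score of GABA-A receptor subunits, with 0.637. Of single genes, PFC16 was apart as the highest male library for Adora2a (gap of 0.941), Penk (0.823), Slc5a7 (0.748), Six3 (0.744, which reached the minimum mean only through this library), Oprd1 (0.715) and the histone methyltransferase gene Setd7 (0.655), and as the lowest for Syp, which encodes the vesicle protein synaptophysin (0.783). Syp was at 32581 in PFC16, and its male median was 37608.

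In PFC6 the immediate early score was the lowest of the females, with a gap of 0.808 of the range. PFC6 was also apart as the lowest for Dusp1 (0.849), Fos (0.738), Dusp5 (0.737), Nr4a1 (0.708), Egr2 (0.69) and Npas4 (0.658). Among the males, Arc was lowest in PFC18 (0.6251) and Ciart highest in PFC20 (0.638), and Btg2, an antiproliferative early gene, was highest in PFC22 of the females (0.629).

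The microglia score was the lowest of the males in PFC18, with a gap of 0.799 of the range, as were Itgam (0.733) and Csf1r (0.702). The olfactory bulb score was the highest of the females in PFC22 (0.887), as was Doc2g (0.834). In PFC2 the projection neuron factor Tbr1 (0.837) and the interneuron gene Pvalb (0.783) were the highest of the females, at 3880 and 822, where the medians were 3068 and 559. Top2a was the highest of the males in PFC9 (0.641). In PFC24, Hba-a2 (0.879), Atp6v0c (0.793) and Gm3055 (0.852) were the lowest of the females.

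Genes with sequence shared by a neighbour or copy also gave marked libraries, with Cers1 lowest in PFC9 of the males (0.859) and in PFC7 of the females (0.795), and Gm14296 lowest in PFC7 (0.92). Hbb-bs, a beta globin gene, was at 0 in all females but PFC7, so that its gap was the whole range (1) and it too reached the minimum mean only through this library.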

How the results depend on the processing

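No paired analysis was possible because each library has a number of its own and littermates are not identified. Leaving out 1 library at a time gave 257 to 285 genes of high spread in both tables, against 278, and r of 0.932 to 0.966 for ribosomal with oxidative phosphorylation genes, 0.72 to 0.897 for myelin with microglia, -0.882 to -0.644 for upper with deep layer genes, 0.459 to 0.793 for immediate early with clock genes, 0.4 to 0.685 for myelin with striatal, 0.514 to 0.706 for myelin with astrocyte, 0.274 to 0.563 for deep layer with striatal, 0.211 to 0.733 for erythroid with endothelium, 0.204 to 0.587 for erythroid with neutrophil, 0.0167 to 0.637 for immediate early with glucocorticoid-responsive, 0.163 to 0.537 for immediate early with heat shock and -0.0114 to 0.645 for meningeal with choroid plexus genes. Of 156 such values, which include the gene counts, 136 were called the same, 19 lost the call and 1, myelin with striatal genes without PFC14, gained it. For r, the same meant keeping its side of an adjusted p of 0.05. Direction was not always kept, since meningeal with choroid plexus genes reached -0.0114. The gene counts have no p-value and stayed between 257 and 285.

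Of 104 values under other settings 98 were called the same in this way. Gene counts were called the same where they stayed of similar size to 278. The striatal score of PFC16, counted among the 98, moved by less than the spread between libraries. With scores as medians, immediate early with clock genes had r = 0.619, and centred on the suffix combined it had 0.714, myelin with microglia 0.522 and upper with deep layer genes -0.798, and in each of these the adjusted p was no longer under 0.05. With deviations centred on bins of transcript length, an alternative added after seeing the data, ribosomal with oxidative phosphorylation genes had r = 0.713. At the 90th percentile 576 genes were of high spread in both tables, which included the 278. At a minimum mean of 50 the lists of neutrophil and choroid plexus genes were too small to give a value. Depth limits genes under a mean of 50, where the coefficient of variation was 22.8% in males and 25.1% in females, and the values of Oprm1, Ly96 and other genes at a few reads.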
